A study of Mus musculus with 4 samples.

Results

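The 9 genes described here encode 6 receptor chains of the common gamma chain cytokine system (Il7r, Il2ra, Il2rb, Il2rg, Il4ra and Il21r), the receptor tyrosine kinase Kit, and the cytokines Il7 and Il15. They were chosen by name, not by any measured value, from the 21027 genes present in both count tables, and all 9 were found. They were followed through single cells that had been sorted as group 3 innate lymphoid cells (ILC3s) from Cxxc1flox/flox mice carrying a Cre transgene, aged 6 to 8 weeks, out of the lamina propria of the small intestine. In these mice the gene Cxxc1 carries loxP sites and the Cre in use is also active in developing T cells, so that a deletion is not limited to ILC3s. All samples belonged to this 1 genotype, and no Cxxc1-sufficient cells were analysed here. The 4 samples are 2 replicates with 2 libraries each, and since the libraries of 1 replicate were merged into 1 table under 1 sample tag, n was 2. Nothing in the labels states that the replicates came from separate animals, so the spread behind the p-values may be technical. The replicate was a term in the fit, so this spread is that of differences between groups of cells over these samples only. The p-values rest mostly on a spread shared over all genes.

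The common gamma chain, encoded by Il2rg, is a subunit shared by the receptors for IL-2, IL-4, IL-7, IL-9, IL-15 and IL-21. It pairs with a further chain (Il7r for IL-7, Il2rb for IL-2 and IL-15, Il4ra for IL-4, Il21r for IL-21), and the complex signals through the kinases JAK1 and JAK3 to STAT factors. Il2ra can join the receptor for IL-2, not that for IL-15. Kit binds stem cell factor, encoded by Kitl, and uses neither that chain nor those kinases. In the intestine IL-7 is known as a product of stromal and epithelial cells that maintains innate and adaptive lymphocytes. IL-15 is known to be presented to neighbouring cells on the IL-15 receptor alpha chain.

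The retained cells numbered 1906 in replicate 1 and 4179 in replicate 2 and held 11267840 and 11896562 unique molecular identifiers (UMIs), with medians of 4200 and 2364 UMIs per cell. Clusters were named from marker genes, with the 9 genes left out of the clustering. The ILC3-like class had 573 and 1649 cells in replicates 1 and 2, the T cell-like class 268 and 1789, the type 2 lymphocyte-like class 36 and 196, the dendritic cell-like class 40 and 19, the macrophage or monocyte-like class 82 and 67, the plasma cell-like class 543 and 77, and the stromal cell-like class 329 and 257. In the type 2 lymphocyte-like class, 35 of 36 and 194 of 196 cells had a CD3 or T cell receptor UMI. Its cluster 8 also had 10 of 13 T cell markers raised, so its levels cannot be read as those of innate type 2 cells. Il23r, the IL-23 receptor chain that marks ILC3s, had 129 and 138 counts per 1000000 UMIs (CPM) in the ILC3-like class. T cell-like cells had 21.4 and 19.7 CPM of it. Since Il23r was on the marker list that named the clusters, this level is no independent check of the ILC3-like class. Different clusters filled this class in the 2 replicates, cluster 4 holding 528 of 573 cells in replicate 1 and clusters 0 and 2 holding 1117 and 532 of 1649 cells in replicate 2. Cxxc1 itself had 42.5 and 47.9 CPM in ILC3-like cells, against 90.0 and 78.0 CPM in T cell-like cells, but these counts do not check the genotype, since the deleted part of Cxxc1 is not given in the sources used here. The 2 captures shared 7 cell index values among the tagged cells, before the filters. The names of the myeloid classes are less certain. The macrophage or monocyte-like class, which is cluster 13, had 10 dendritic cell markers at 49054 and 28196 CPM and its own 11 markers at 3243 and 11035 CPM. With a stricter filter on cells it fell to 33 and 56 cells, and a separate cluster of 39 and 5 cells with raised Xcr1 and Clec9a, markers of a dendritic cell subset, appeared. The dendritic cell-like class was cluster 16 in both replicates (19 cells each) and, in replicate 1 only, also cluster 18 (21 cells), whose top 10 genes held Cd8b1, a T cell marker, and none of the dendritic cell markers. Lymphocyte transcripts were more abundant in the non-lymphocytes of replicate 2. Cd3e, a T cell receptor subunit, had 3.89 CPM in stromal cell-like and 8.60 CPM in plasma cell-like cells of replicate 1, but 109 and 318 CPM in those of replicate 2. Receptor levels in non-lymphocytes of replicate 2 are therefore given beside those of replicate 1, and the part of free RNA or of doublets in them was not tested.

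Levels below are CPM of the UMIs summed over the cells of a class, with the value in replicate 1 before that in replicate 2, and an interval in brackets covers counting error only (exact Poisson, 95%). Since the classes were drawn from the same cells, classes from clusters are described without a test. Fewer cells with a transcript and less transcript per cell cannot be told apart in such sums, so shares of cells with a UMI are added where they help.

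Il2rg, the shared chain, was high in every lymphocyte class. Il2rg had 738 and 910.5 CPM in ILC3-like cells, 601 and 822 CPM in T cell-like cells and 945 and 939.5 CPM in type 2 lymphocyte-like cells. Il2rg had 276 and 439 CPM in dendritic cell-like cells, 137 and 492 CPM in macrophage or monocyte-like cells, 163 and 386 CPM in plasma cell-like cells and 19.1 and 169.9 CPM in stromal cell-like cells. The 3 lymphocyte classes thus lay above these 4 non-lymphocyte classes in both replicates. In replicate 1, where Cd3e was low in non-lymphocytes, Il2rg exceeded Il7r most in plasma cell-like and macrophage or monocyte-like cells: there were 5.40 and 5.10 UMIs of Il2rg for each UMI of Il7r in these classes, against 1.19 in ILC3-like cells and 0.636 in T cell-like cells. In replicate 2 these ratios were 1.63, 1.00, 1.03 and 0.547. Plasma cell-like cells of replicate 1 also held Il2rb, at 416 UMIs beside 681 of Il2rg.

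Il7r, the specific chain of the IL-7 receptor, was high in all lymphocytes and ran somewhat higher in T cells than in ILC3s. Il7r had 618 [585 to 653] and 884 [857 to 912] CPM in ILC3-like cells. T cell-like cells had Il7r at 944 [881 to 1009.8] and 1502 [1464 to 1542] CPM, and type 2 lymphocyte-like cells at 841 and 1078 CPM. The ILC3-like cells were below the T cell-like cells without overlap, at 0.655 and 0.589 of their level within replicates 1 and 2. The nearest values, 884 and 944 CPM, came from different replicates and lay closer together than the replicates of either class. Il7r had 267 and 384 CPM in dendritic cell-like cells, and 18.0 and 181 CPM in stromal cell-like cells. After thinning every cell to 1500 UMIs, 54.7% and 64.8% of ILC3-like cells had an Il7r UMI, against 59.9% and 74.0% of T cell-like cells and 2.45% and 18.3% of stromal cell-like cells. Without thinning these shares were 75.7% and 77.9%, 76.5% and 78.4%, and 7.90% and 38.9%.

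Il2rb, the signalling chain shared by the IL-2 and IL-15 receptors, was highest in ILC3s, with T cells close behind. Il2rb had 1042 and 1108 CPM in ILC3-like cells, 822 and 932 CPM in T cell-like cells and 789 and 654 CPM in type 2 lymphocyte-like cells. Il2rb had 34.0 and 149 CPM in dendritic cell-like cells and 7.70 and 224 CPM in macrophage or monocyte-like cells. Il2ra, the chain that gives the IL-2 receptor its high affinity, separated the lymphocytes more than Il2rb. Il2ra had 332 and 426 CPM in ILC3-like cells, against 135 and 131 CPM in T cell-like cells, with no overlap between the classes. In type 2 lymphocyte-like cells the replicates disagreed, with 139 CPM (16 UMIs) in replicate 1 and 375 CPM (193 UMIs) in replicate 2, so that this class was not separate from the ILC3-like cells. ILC3-like cells held 72.9% and 68.3% of all Il2ra UMIs in the retained cells.

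Il4ra, the IL-4 receptor chain, was found in lymphoid and myeloid cells alike. Il4ra had 191 and 171 CPM in ILC3-like cells, 133 and 138 CPM in T cell-like cells and 95.4 and 75.9 CPM in type 2 lymphocyte-like cells. Il4ra had 222 and 143 CPM in macrophage or monocyte-like cells and 175 and 94.1 CPM in dendritic cell-like cells, values that overlap those of ILC3-like cells. It had 38.5 and 41.2 CPM in stromal cell-like cells and 8.13 and 65.1 CPM in plasma cell-like cells. The type 2 class, which carried the transcript of the ligand gene Il4 at 156 and 405 CPM, had the least Il4ra of the 3 lymphocyte classes in each replicate.

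Il21r and Kit drew opposite pictures of the same lymphocytes. Il21r, the specific chain of the IL-21 receptor, had 12.7 and 27.4 CPM in ILC3-like cells (26 and 126 UMIs), against 443 and 595 CPM in T cell-like cells. Kit had 467 and 432 CPM in ILC3-like cells, against 19.1 and 43.3 CPM in T cell-like cells. T cell-like cells held 75.2% and 84.5% of all Il21r UMIs, and ILC3-like cells 78.6% and 85.7% of all Kit UMIs. In thinned cells, 2.47% and 3.31% of ILC3-like cells had an Il21r UMI against 48.5% and 49.1% of T cell-like cells, and 47.4% and 45.8% of ILC3-like cells had a Kit UMI against 3.05% and 4.71% of T cell-like cells. Unthinned, Il21r was found in 3.84% and 5.40% of ILC3-like and 66.0% and 56.6% of T cell-like cells, and Kit in 72.8% and 61.4% of ILC3-like and 5.22% and 7.15% of T cell-like cells. Stromal cell-like cells, taken as a reference for background though this was not tested, had 1.41 [0.385 to 3.62] and 55.2 CPM of Il21r. After thinning, 0.307% and 9.35% of them had a UMI of it. Il21r in ILC3-like cells thus stood above stromal cell-like cells in replicate 1 (12.7 CPM [8.30 to 18.6]), but below them in replicate 2, where it cannot be told apart from background. Kit was found in 2.15% and 5.69% of thinned stromal cell-like cells, near the shares of T cell-like cells, so a low level of Kit in T cell-like cells is not told apart from background. Within the ILC3-like class, Il21r had 9.58 CPM in cluster 4 of replicate 1 and 13.2 CPM in cluster 0 of replicate 2, and 36.9 and 64.4 CPM in cluster 2.

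Outside the T cell-like class, Il21r reached its highest levels in cluster 16 of the dendritic cell-like class, at 247 [168 to 350] and 204 [133 to 299] CPM (31 and 26 UMIs in 19 cells of each replicate). Cluster 18, found in replicate 1 only, had 137 CPM (11 UMIs), and the whole class had 204 CPM in each replicate. The 13 T cell markers summed to 1053 and 878 CPM in this class, with 4 of them at 0 in each replicate. Cd3e and the T cell receptor gene Trac were at 0 in replicate 1, while Cd3e had 17 UMIs in replicate 2. Their part in the Il21r level was not tested. Type 2 lymphocyte-like cells had 69.4 and 124 CPM of Il21r, below both values of the whole dendritic cell-like class. In cells thinned to 1500 UMIs this order was lost, with 150.0 and 74.1 CPM in dendritic cell-like and 92.6 and 147 CPM in type 2 lymphocyte-like cells. Kit had 110.3 and 64.0 CPM in macrophage or monocyte-like cells (86 and 22 UMIs), the class with high dendritic cell markers. The 7 measured mast cell markers, mast cells being a known Kit-bearing cell, had 0 UMIs in this class in both replicates, and Il23r had 3 and 2 UMIs in it. Kit had 95.4 and 40.8 CPM in type 2 lymphocyte-like cells, where the same mast cell markers summed to 668 and 3.89 CPM. Their part in that Kit level was not tested. The unnamed cluster 15 had 122 and 178 CPM of Kit from 5 and 17 UMIs.

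**Figure D1:**
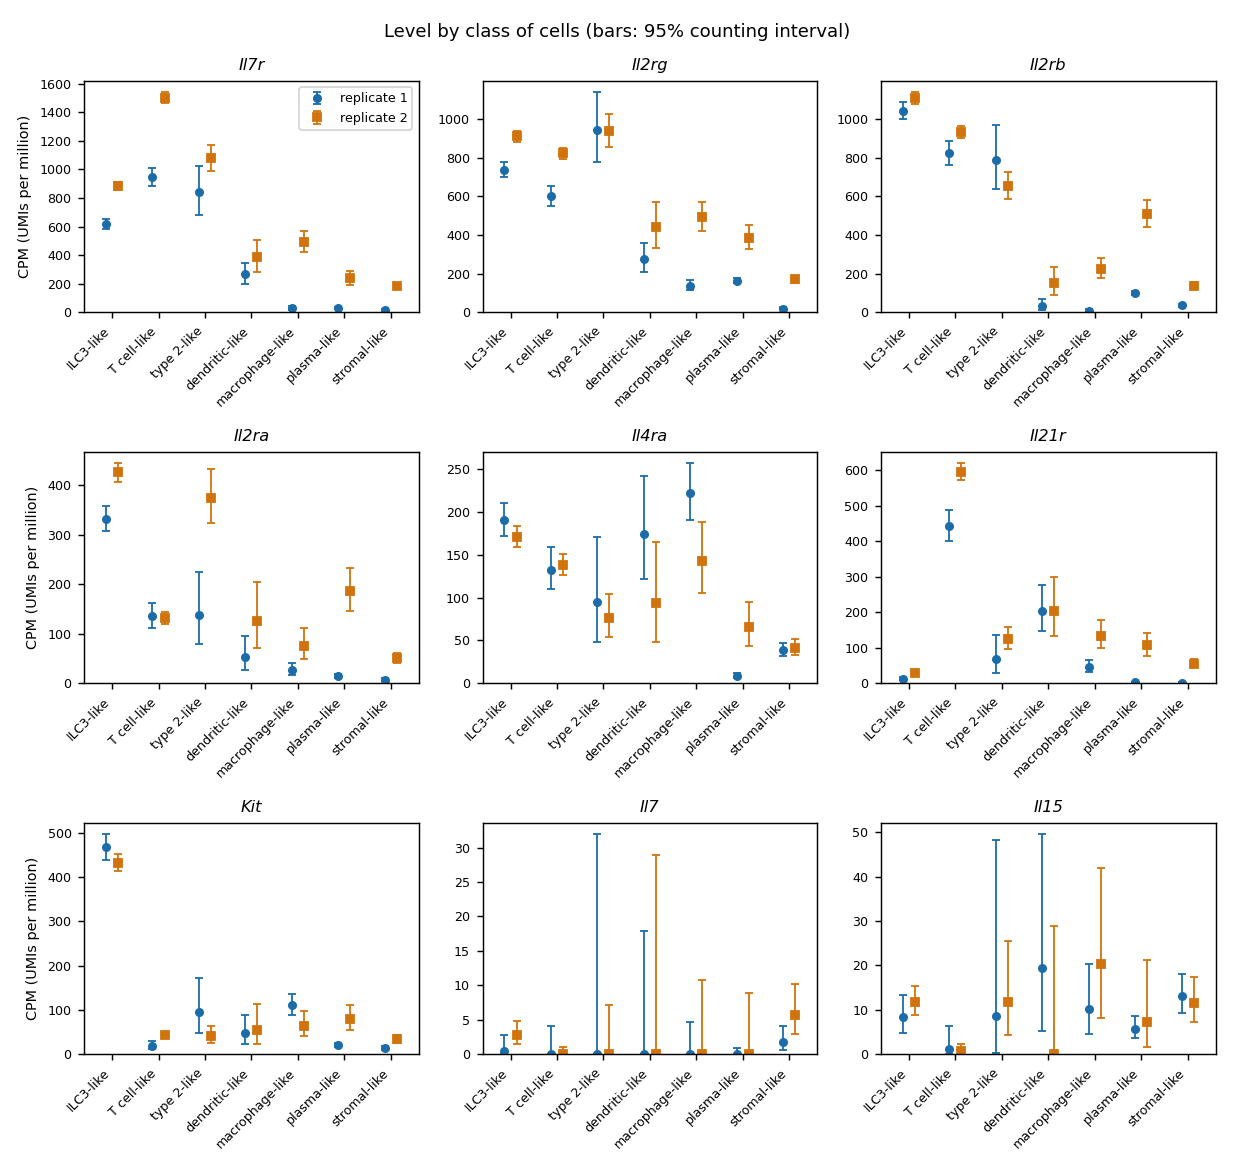
Level of each of the 9 genes (CPM) in each class of cells, with 1 point per replicate and bars for the 95% counting interval. Il21r is high in T cell-like cells (443 and 595 CPM) and low in ILC3-like cells (12.7 and 27.4 CPM), while Kit is high in ILC3-like cells (467 and 432 CPM) and low in T cell-like cells (19.1 and 43.3 CPM).

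The 9 genes lie on 7 chromosomes in the GRCm38 annotation (GENCODE vM21), where each is annotated as protein-coding. Il7r spans 9505788 to 9530176 and Il2rb 78479256 to 78495271 on chromosome 15, both on the minus strand. Il4ra (125552120 to 125579474) and Il21r (125603429 to 125633570) lie side by side on the plus strand of chromosome 7. Kit spans 75574916 to 75656722 on the plus strand of chromosome 5, Il2ra 11642807 to 11693193 on the plus strand of chromosome 2, and Il2rg 101264378 to 101268255 on the minus strand of chromosome X. The ligand genes lie on the minus strand, Il7 at 7569994 to 7613760 on chromosome 3 and Il15 at 82331632 to 82403222 on chromosome 8. Although Il4ra and Il21r are neighbours, only Il21r differed widely between ILC3-like and T cell-like cells.

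Start-site windows were found for 6 of the 9 genes (RefSeq, GRCm38.p6, 250 bases before to 50 after the start, 5′ to 3′ on the gene's strand). The windows of Il7r (chr15:9529827-9530126, minus strand), Il21r (chr7:125603179-125603478, plus strand) and Kit (chr5:75574737-75575036, plus strand) are shown because these genes have the most different patterns: lymphocyte-wide, T cell-like and ILC3-like. Capitals mark the motifs found among the 3 searched on both strands, which do not overlap here: TTCNNNGAA, bound by STAT factors, AGGTCA, bound by nuclear receptors, and TGTGGT, bound by RUNX factors.
Il7r: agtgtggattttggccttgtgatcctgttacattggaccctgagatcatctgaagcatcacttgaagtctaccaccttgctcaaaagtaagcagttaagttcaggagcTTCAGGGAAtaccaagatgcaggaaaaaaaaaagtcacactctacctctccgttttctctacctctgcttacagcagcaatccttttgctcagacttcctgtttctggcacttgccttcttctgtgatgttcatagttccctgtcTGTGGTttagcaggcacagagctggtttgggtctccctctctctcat
Il21r: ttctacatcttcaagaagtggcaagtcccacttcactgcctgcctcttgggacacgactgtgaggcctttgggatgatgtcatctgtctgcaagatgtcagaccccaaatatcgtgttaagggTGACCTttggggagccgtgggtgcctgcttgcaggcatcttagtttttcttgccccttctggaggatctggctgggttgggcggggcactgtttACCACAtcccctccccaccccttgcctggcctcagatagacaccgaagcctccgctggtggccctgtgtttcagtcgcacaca
Kit: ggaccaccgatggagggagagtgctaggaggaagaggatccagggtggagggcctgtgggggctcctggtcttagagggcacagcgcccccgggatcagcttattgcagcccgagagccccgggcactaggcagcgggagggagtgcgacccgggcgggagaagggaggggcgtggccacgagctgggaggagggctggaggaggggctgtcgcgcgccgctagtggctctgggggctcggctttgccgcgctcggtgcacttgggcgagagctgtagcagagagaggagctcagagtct
Counted from the first base, the Il7r window holds TTCNNNGAA at position 109 and TGTGGT at position 254. The Il21r window holds AGGTCA and TGTGGT on the reverse strand, at positions 124 and 218. None of the 3 motifs is in the windows of Kit, Il2ra or Il4ra, and Il2rg (chrX:101268206-101268505) has TGTGGT at position 24. Over all 32851 windows of this length in the table, 8.30% hold TTCNNNGAA, 16.3% AGGTCA and 16.8% TGTGGT, so single matches are common and only describe the letters.

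ILC3-like cells were next split by transcripts that the rule for the 9 genes does not use. Ncr1-gated cells (a UMI of Ncr1, the natural cytotoxicity receptor NKp46, and none of Ccr6) numbered 103 and 213. Ccr6-gated cells (a UMI of Ccr6, a chemokine receptor of lymphoid tissue inducer-like ILC3s, and none of Ncr1) numbered 49 and 155, and the remainder with neither numbered 421 and 1278. Of the 9 genes only Il2rb passed the test between these gates. Il2rb had 1469.7 and 1500.5 CPM in Ncr1-gated cells, 1005 and 952 CPM in Ccr6-gated cells and 946 and 1062 CPM in the remainder. Both Ncr1-gated values lay above those of every other class with at least 10 cells in each replicate, with no overlap. Ncr1-gated cells thus averaged 1485 ± 21.8 CPM, Ccr6-gated cells 979 ± 37.7 CPM and the remainder 1004 ± 82.0 CPM (SD, n = 2 each).

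By edgeR's quasi-likelihood test with Benjamini-Hochberg adjustment over 6921 genes, Il2rb was higher in Ncr1-gated than in Ccr6-gated cells by 0.61 on the log2 scale (SE 0.10, adjusted p = 0.000133), a fold of 1.53 with a 95% interval of 1.32 to 1.76. It was 1 of 7 tested of the 9 that was higher and none was lower, against 4.26% of all genes called higher and 8.93% called in either direction. Against the remainder, Il2rb in Ncr1-gated cells was higher by 0.56 (SE 0.09, adjusted p = 0.000405 by the same edgeR test), again 1 of 7, against 1.16% of all genes called higher and 2.23% in either direction. Ccr6-gated cells against the remainder gave no call among the 7, against 3.92% of all genes, and the Il2rb difference there was -0.05 (95% interval -0.24 to 0.15). The 3 comparisons share classes and are not independent. Markers of other cells moved with the gates: 8 markers of ILC1s or natural killer cells summed to 2264 and 1348 CPM in Ncr1-gated cells, 29.1 and 100.1 CPM in Ccr6-gated and 852 and 753 CPM in the remaining cells. Eomes, a natural killer cell factor and 1 of the 8, was at 0 and 0.435 CPM in the whole class. In Ncr1-gated cells 2 of the 8 were at 0 in each replicate. Under the stricter filter on cells, a cluster with Ncr1 among its top 10 genes had Tbx21, Prf1, Gzma, Klrb1c and Nkg7 of this list raised. The part of ILC1s in the Il2rb difference was not tested. The 13 T cell markers summed to 914 and 871 CPM in Ncr1-gated cells, against 481 and 511 CPM in Ccr6-gated cells. Leaving out cells that had a CD3 or T cell receptor UMI cut the Il2rb UMIs of both replicates from 1431 to 482 in Ncr1-gated cells. In Ccr6-gated cells they fell from 730 to 472. Without such cells, Il2rb was at 1317 and 1344 CPM in Ncr1-gated cells, against 1125 and 912 CPM in Ccr6-gated cells, and the call was lost (log2 difference 0.39, adjusted p = 0.131 by edgeR's quasi-likelihood test; adjusted p from 3.60e-11 to 0.443 over 11 alternatives, of which 9 kept the call). The part of the lower counts in this loss was not tested. Cluster 2, which took the name of ILC1s or natural killer cells when doublets were kept or cells were filtered more strictly, held 13.6% and 65.3% of Ncr1-gated cells, and without it Il2rb stayed at 1386 and 1260 CPM in Ncr1-gated against 1005 and 946 CPM in Ccr6-gated cells (0.41, adjusted p = 0.0435 by edgeR). Against the remainder the call was lost without cluster 2 (0.46, adjusted p = 0.103 by edgeR), without the replicate as a term in the fit (0.57, adjusted p = 0.185) and in thinned cells (0.44, adjusted p = 0.0543), and 8 of 11 alternatives kept it (adjusted p from 7.05e-09 to 0.185).

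None of the other receptors of the system passed the adjusted threshold between the ILC3 gates. For Il7r, Il4ra and Il21r a 95% interval, which is not adjusted for the number of genes, excluded equal levels. Il7r had 601 and 853 CPM in Ncr1-gated cells, 651 and 1147 CPM in Ccr6-gated and 618 and 848 CPM in the remaining cells. It was lowest in Ncr1-gated cells of replicate 1 and highest in Ccr6-gated cells of both replicates, and the difference of -0.31 between the gates did not pass (95% interval -0.54 to -0.09, adjusted p = 0.0835 by edgeR's quasi-likelihood test). Il2ra had 392 and 403 CPM in Ncr1-gated cells, against 248 and 529.7 CPM in Ccr6-gated cells, so the direction differed between replicates. Il2rg had 746 and 933 CPM in Ncr1-gated cells, against 709 and 894 CPM in Ccr6-gated cells, a difference of 0.07 (95% interval -0.15 to 0.28).

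Il4ra had 187 and 181 CPM in Ncr1-gated cells, 121 and 140.2 CPM in Ccr6-gated cells and 201 and 175 CPM in the remainder. The Ccr6-gated values lay below both other gates in each replicate, but neither difference passed. Il4ra in Ncr1-gated against Ccr6-gated cells differed by 0.44 (95% interval 0.04 to 0.85, adjusted p = 0.197 by edgeR). In Ccr6-gated cells against the remainder it differed by -0.46 (95% interval -0.81 to -0.10, adjusted p = 0.178 by edgeR). Il21r rested on 10 and 25 UMIs in Ncr1-gated cells, against 4 and 5 UMIs in Ccr6-gated cells, and its difference of 1.68 (95% interval 0.43 to 2.93) did not pass (adjusted p = 0.0897 by edgeR). Kit lay in a narrow range over the gates, with 400.0 and 403 CPM in Ncr1-gated cells, 423 and 440.5 CPM in Ccr6-gated and 489 and 436 CPM in the remaining cells. The Kit difference between Ncr1-gated and Ccr6-gated cells was -0.12 with a 95% interval of -0.39 to 0.16. In cells thinned to 1500 UMIs, Il7r and Kit were found together in 23.3% and 32.0% of Ncr1-gated, 33.3% and 35.1% of Ccr6-gated and 24.5% and 28.7% of the remaining ILC3-like cells. The same pair was found together in 0.719% and 3.22% of T cell-like cells without a gate gene.

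**Figure D2:**
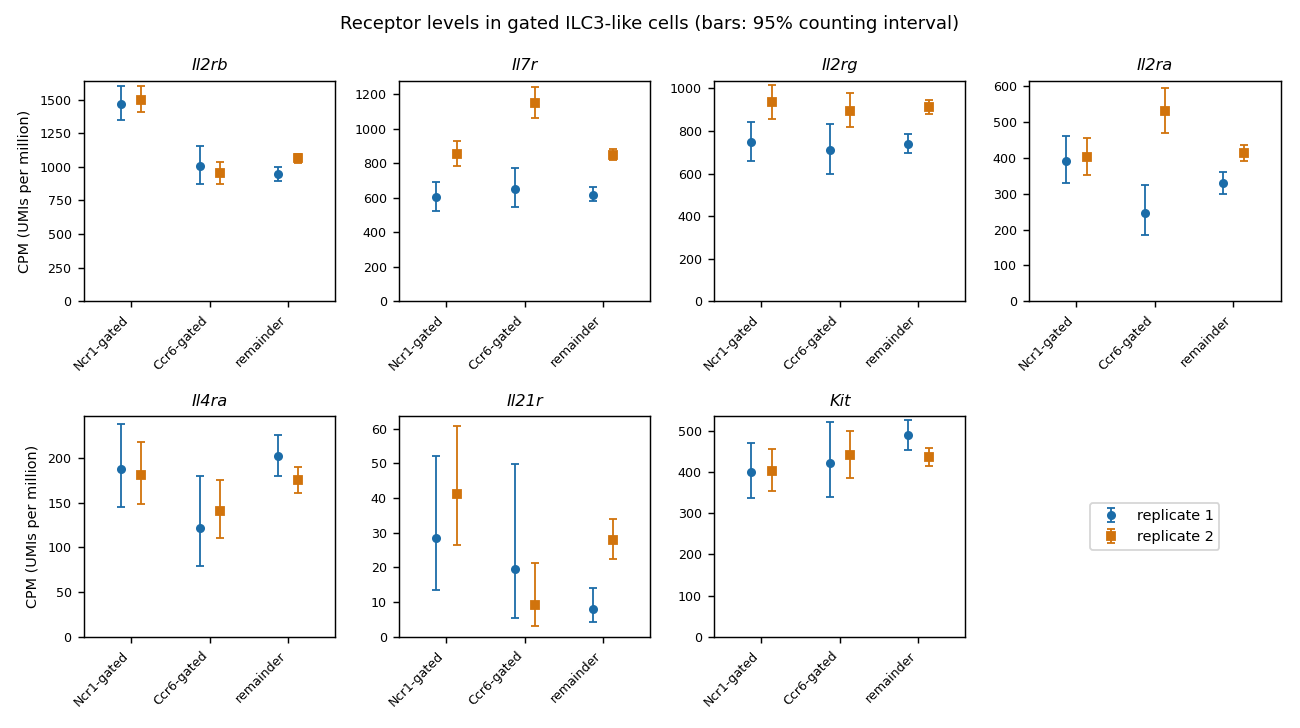
Level (CPM) of 7 receptor genes in Ncr1-gated, Ccr6-gated and remaining ILC3-like cells, with 1 point per replicate and bars for the 95% counting interval. Il2rb lies at 1469.7 and 1500.5 CPM in Ncr1-gated cells, above the Ccr6-gated (1005 and 952 CPM) and remaining cells (946 and 1062 CPM), while Kit is between 400.0 and 489 CPM in all 6 sums.

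T cell-like cells were split in the same way by Ifng (98 and 520 cells with its UMI and none of Il21, Cd8a or Cd8b1), by Cd8a or Cd8b1 (11 and 222 cells) and into cells with no gate gene (144 and 932 cells). The gate on Il21 had 2 and 39 cells and was not tested. Different clusters filled these gates in the 2 replicates. In replicate 1 cluster 9 held 81.6% of Ifng-gated, 81.8% of Cd8-gated and 85.4% of no-gate cells. In replicate 2 clusters 5 and 1 held 41.2% and 37.5% of Ifng-gated cells, clusters 3 and 11 held 54.1% and 40.5% of Cd8-gated cells, and clusters 1 and 3 held 39.5% and 34.1% of no-gate cells. Il2ra, the high-affinity chain, was the gene that moved across these gates. Il2ra had 203.5 and 188 CPM in Ifng-gated cells, 30.5 and 37.4 CPM in Cd8-gated cells (1 and 20 UMIs) and 83.7 and 109.7 CPM in cells with no gate gene. The 3 gates did not overlap. Il2ra was higher in Ifng-gated cells than in cells with no gate gene by 0.95 (SE 0.22, adjusted p = 0.00514 by edgeR's quasi-likelihood test), a fold of 1.93 with a 95% interval of 1.43 to 2.60. It was 1 of 7 tested of the 9, against 0.514% of 6225 genes called higher and 0.675% in either direction. In Cd8-gated cells Il2ra was lower than in cells with no gate gene (log2 difference -1.50, SE 0.37, adjusted p = 0.00487), a fold of 0.353 with an interval of 0.212 to 0.586.

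Il7r was the other gene called in Cd8-gated cells. Il7r had 794 and 867 CPM in Cd8-gated cells, against 1045 and 1544 CPM in cells with no gate gene, without overlap. The difference was -0.80 (SE 0.20, adjusted p = 0.00441 by edgeR's quasi-likelihood test), so that 2 of 7 tested were lower, against 1.37% of all genes called lower and 1.99% in either direction. These T cell calls depended on the fit: without the replicate as a term the adjusted p was 1.00 for Il2ra in Ifng-gated cells, 0.414 for Il2ra and 1.00 for Il7r in Cd8-gated cells (edgeR's quasi-likelihood test), and 4 of 7, 2 of 6 and 3 of 6 alternatives kept them (adjusted p from 3.94e-05 to 1.00, 0.00566 to 0.529 and 0.00197 to 1.00). The direction was the same in each replicate and each alternative for all 3. In Ifng-gated cells Il7r had 873 and 1662 CPM, above the cells with no gate gene in replicate 2 only (log2 difference -0.06, 95% interval -0.39 to 0.27).

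The remaining receptors did not pass in either T cell comparison. Il21r had 370 and 629 CPM in Ifng-gated, 458 and 592 CPM in Cd8-gated and 526 and 595 CPM in no-gate cells, and the 3 gates overlap. Il2rb had 881 and 998 CPM in Ifng-gated, 916 and 872 CPM in Cd8-gated and 775 and 911 CPM in no-gate cells. Its difference in Cd8-gated cells was -0.02 (95% interval -0.40 to 0.35). Kit stayed at 13.4 and 60.1 CPM in Ifng-gated and 30.5 and 44.8 CPM in Cd8-gated cells, against 23.9 and 33.8 CPM in no-gate cells, levels near those of stromal cell-like cells (13.4 and 33.9 CPM). Natural killer cell markers differed between the T cell gates, at 5709 and 2946 CPM in Ifng-gated and 5254 and 12692 CPM in Cd8-gated cells, against 2903 and 3049 CPM in cells with no gate gene, and their part in these differences was not tested.

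**Figure D3:**
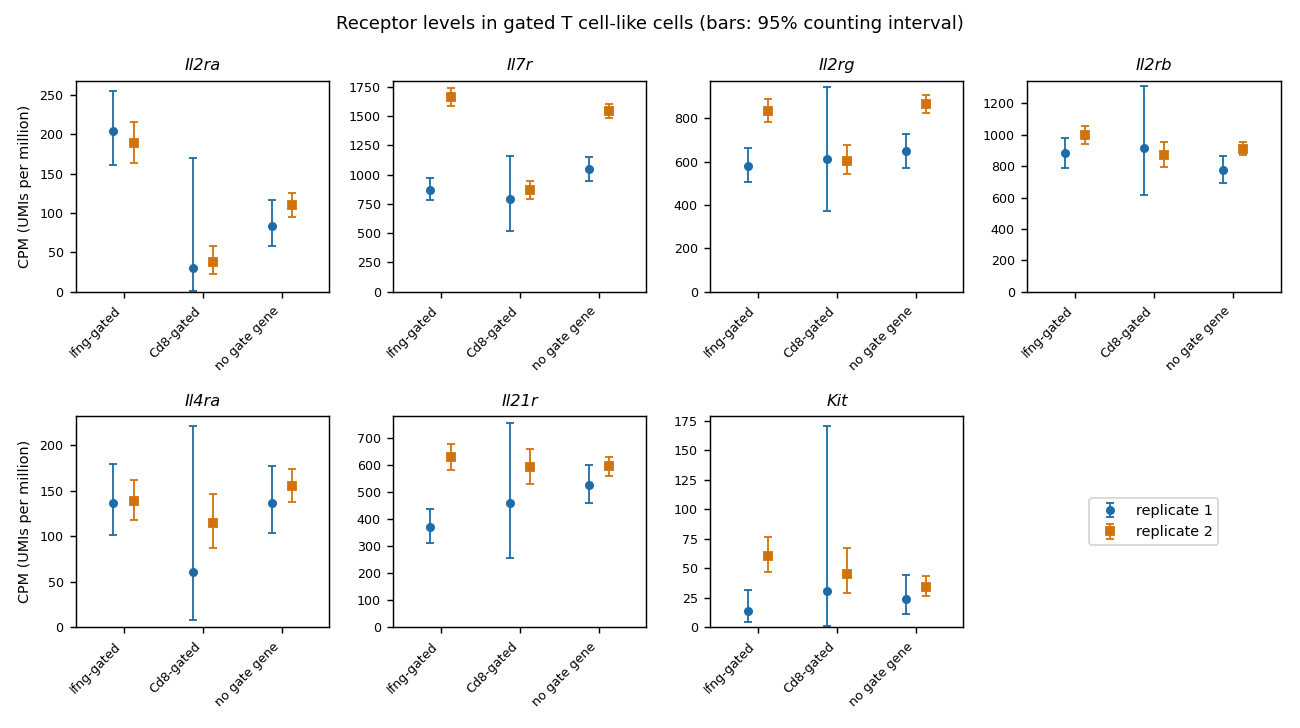
Level (CPM) of receptor genes in gated T cell-like cells, with 1 point per replicate and bars for the 95% counting interval. Il2ra runs at 203.5 and 188 CPM in Ifng-gated, 30.5 and 37.4 CPM in Cd8-gated and 83.7 and 109.7 CPM in no-gate cells, and Il7r is lower in Cd8-gated cells (794 and 867 CPM) than in no-gate cells (1045 and 1544 CPM).

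**Figure D4:**
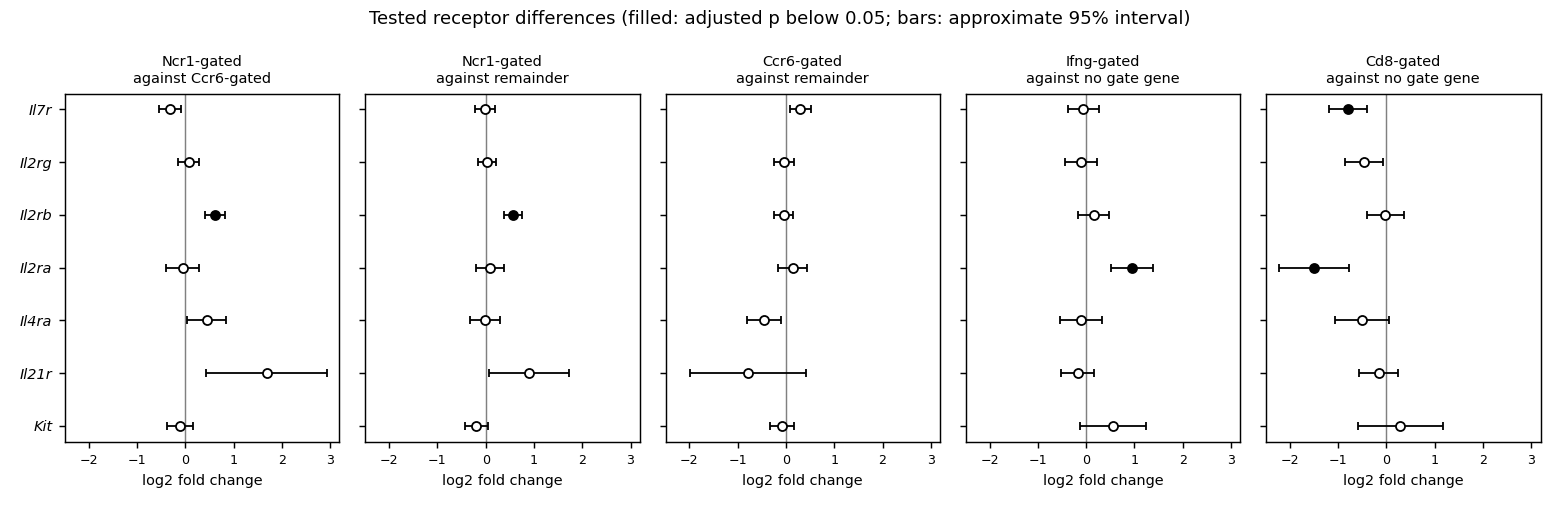
Log2 differences of the 7 tested genes in the 5 comparisons of gates, with 95% intervals from edgeR's fit and filled points for adjusted p below 0.05. The called differences are Il2rb at 0.61 and 0.56 in Ncr1-gated ILC3-like cells, Il2ra at 0.95 in Ifng-gated and -1.50 in Cd8-gated T cell-like cells, and Il7r at -0.80 in Cd8-gated T cell-like cells.

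The ligands were rare. Il7 had 5 and 11 UMIs in stromal cell-like cells (1.77 and 5.73 CPM, with intervals of 0.574 to 4.13 and 2.86 to 10.3), and 1 and 13 UMIs in ILC3-like cells (0.488 and 2.83 CPM). It had 0 UMIs in T cell-like, type 2 lymphocyte-like, dendritic cell-like, macrophage or monocyte-like and plasma cell-like cells of both replicates, and in 889064 and 3808868 T cell UMIs that count allows up to 3.37 and 0.788 CPM. The same limit is 3.85 and 8.73 CPM in macrophage or monocyte-like cells, 14.6 and 23.5 CPM in dendritic cell-like cells and 26.0 and 5.84 CPM in type 2 lymphocyte-like cells, above the stromal levels. Endothelial cell-like cells had 8 Il7 UMIs in 16 cells of replicate 1 (94.2 CPM [40.7 to 186]) and 2 UMIs in the 1 cell of replicate 2. At these counts Il7 was detected in stromal and endothelial cells, and a level as low as the stromal one would not have been detectable in the myeloid classes. In ILC3-like cells it rested on replicate 2, since the 1 UMI of replicate 1 lay below the limit of 3 counts (1.47 CPM). Ccr6-gated cells had 0 Il7 UMIs, and the part of free RNA or doublets in the ILC3-like UMIs was not tested.

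Il15 was spread over more classes. It had 37 and 22 UMIs in stromal cell-like cells (13.1 and 11.5 CPM), 8 and 7 UMIs in macrophage or monocyte-like cells (10.3 and 20.4 CPM) and 4 and 0 UMIs in dendritic cell-like cells. Il15 had 17 and 54 UMIs in ILC3-like cells (8.30 and 11.7 CPM [8.83 to 15.3]), against 1 and 3 UMIs in T cell-like cells (1.12 and 0.788 CPM). Type 2 lymphocyte-like cells had 8.67 and 11.7 CPM from 1 and 6 UMIs, and plasma cell-like cells 5.74 and 7.24 CPM from 24 and 3 UMIs. The ILC3-like values were near those of stromal, myeloid and type 2 lymphocyte-like cells and above those of T cell-like cells in both replicates. Stromal cell-like cells held 37.8% and 22.9% of the Il15 UMIs, plasma cell-like cells 24.5% and 3.12% and ILC3-like cells 17.3% and 56.2%. Neither ligand passed the low-count filter of any comparison.

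The related ligand and chain genes outside the 9 marked other classes. Kitl, the ligand of Kit, had 103 and 47.9 CPM in stromal cell-like cells, against 1.47 and 0.218 CPM in ILC3-like cells, and 16 UMIs (188 CPM) in the endothelial cell-like cells of replicate 1. Il15ra, which presents IL-15, had 38.8 and 70.6 CPM in dendritic cell-like cells (8 and 9 UMIs) and 14.7 and 13.3 CPM in ILC3-like cells. Il9r, the IL-9 receptor chain, had 60.7 and 146 CPM in type 2 lymphocyte-like cells. Tslp, which signals through Il7r paired with Crlf2, had 10.6 and 14.1 CPM in stromal cell-like cells. Of the 4 listed partner chains only Crlf2 could be tested, and of the other ligands only Il2 in T cells, and neither was called in any comparison.

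The most downstream genes were called between Ncr1-gated and Ccr6-gated ILC3-like cells, the comparison with the most calls over all genes. There 8.93% of all genes were called, against 2.23% for Ncr1-gated and 3.92% for Ccr6-gated cells against the remainder. Of 9 JAK and STAT genes, all tested, 2 were higher in Ncr1-gated cells, against 4.26% of all genes. Jak2, a kinase used by many other cytokine receptors, was higher by 0.91 and Stat3 by 0.39 (adjusted p = 0.00202 and 0.0262 by edgeR's quasi-likelihood test). Of 13 feedback regulators and targets of STAT5, 3 were higher and 1 lower, against 4.26% of all genes called higher and 8.93% in either direction. The list median was 0.26, against -0.00137 over all genes. Socs2 and Socs3, inhibitors of cytokine signalling, were higher by 1.90 and 1.05. Socs2 had 267 and 105 CPM in Ncr1-gated cells, against 24.3 CPM (5 UMIs) and 51.0 CPM in Ccr6-gated cells, and its difference was 1.07 without replicate 1 and 3.39 without replicate 2. Socs3 had 204 and 139.7 CPM in Ncr1-gated cells, against 58.3 and 87.4 CPM in Ccr6-gated cells, with differences of 0.70 without replicate 1 and 1.76 without replicate 2. Bcl2l11, which encodes the pro-apoptotic protein BIM, had 190.1 and 133 CPM in Ncr1-gated cells, against 34.0 and 52.8 CPM in Ccr6-gated cells (1.69, adjusted p = 0.000132). Bcl2, the anti-apoptotic gene, ran the other way, with 289 and 319 CPM in Ncr1-gated cells and 578 and 672 CPM in Ccr6-gated cells (-1.05, adjusted p = 3.85e-06). The members that moved in this list are thus inhibitors of cytokine signalling and genes of opposite roles in cell death. The call was lost in 1 of 11 alternatives for Bcl2 and Bcl2l11, in 3 for Socs2, 4 for Jak2, 5 for Socs3 and 7 for Stat3.

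Against the remainder, Ncr1-gated cells had lower Bcl2 (-0.54) and higher Socs2 (0.92) and Bcl2l11 (0.91), with adjusted p between 0.00626 and 0.0315 by edgeR's quasi-likelihood test, so that 3 of the 13 STAT5 regulators and targets were called, against 2.23% of all genes. The Socs2 difference rested on replicate 1, being 0.30 without it and 1.54 without replicate 2. Ccr6-gated cells against the remainder had higher Bcl2 (0.51, adjusted p = 0.00712) and lower Socs3 (-0.77, adjusted p = 0.0484, edgeR; -0.56 without replicate 1 and -1.34 without replicate 2), 2 of 13 against 3.92% of all genes. In T cell-like cells, Cish, a feedback inhibitor induced by STAT5, was higher in Ifng-gated cells, at 203 and 198 CPM against 160 and 94.9 CPM in cells with no gate gene (0.78, adjusted p = 0.0415 by edgeR, lost in 6 of 7 alternatives, and 0.33 without replicate 2), 1 of 13 against 0.514% of all genes called higher. Cd8-gated cells had lower Jak2 (-0.90, adjusted p = 0.00885) and Socs2 (-1.51, adjusted p = 0.0484, edgeR, lost in all 6 alternatives), which are 1 of 9 and 1 of 13 listed genes against 1.37% of all genes called lower. Socs2 had 0 and 12 UMIs in Cd8-gated cells, against 57 and 98 UMIs in cells with no gate gene. Bcl2 also differed between the classes, with 429 and 456 CPM in ILC3-like cells and 84.4 and 132 CPM in T cell-like cells.

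Likeness of pattern was measured as Pearson's r of log2(CPM + 10) over the classes with at least 20 cells, 10 in replicate 1 and 12 in replicate 2, which share libraries and differ in depth. Il2rg and Il7r ran together (r = 0.91 and 0.92), as did Il2rb and Il2rg (0.82 and 0.88), while Il21r and Kit did not (-0.32 and -0.79). Among 5454 genes, the nearest to Kit were Lrrc8b (0.94 and 0.95), Clnk and Upp1, and the nearest to Il21r were Crybg1 (0.98 and 0.94), Acadl and Slamf1. Nearest to Il7r were Birc6 (0.96 and 0.95), H2-Q7 and Mbnl1, to Il2rg Dock2 (0.98 and 0.93), Tma7 and Crem, and to Il2rb Gimap5 (0.95 and 0.95), Saraf and Rapgef6. Nearest to Il2ra were Hilpda (0.93 and 0.91), Zfhx2 and Ptbp1, and to Il4ra Cbl (0.91 and 0.88), Dock10 and Tgif1. The ligands had looser neighbours, Il7 with Snai1 (0.89 and 0.88), Wwtr1 and Creb3l1, and Il15 with Ctsh (0.84 and 0.93), Ptgs2 and Stx7, and the few UMIs of both limit these values.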

How the data were processed

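Single-cell RNA sequencing had been run on the BD Rhapsody system. Per the file headers, the deposited tables hold counts of molecules (UMIs) per cell and gene, not normalised, made by the authors with the BD WTA Multiplex Rhapsody Analysis Pipeline 1.8 on GRCm38 with GENCODE vM19 genes. Sample tags are calls of that pipeline. HISAT2 2.0.5 and Bowtie2 are named, with no role, per the submitters' processing notes. Whether strand was used in counting is not given in the sources used here. Tag 4 was called in 2077 of 8064 cells of one capture (replicate 1) and tag 2 in 4532 of 15793 cells of the other (replicate 2). Multiplet (349 and 572) and undetermined calls (508 and 1128) were not used.

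A filter of at least 300 genes and at most 25% UMIs from mitochondrial genes left 1945 and 4185 cells. Scrublet, in scanpy 1.11.5, removed 39 (2.01%) and 6 (0.143%), so doublets must be taken as present in replicate 2. Leiden clustering (leidenalg 0.10.2, resolution 0.8, 2000 variable genes, 30 components, 15 neighbours) gave 21 clusters. A cluster was named from a marker list with at least 3 markers raised 2-fold, a rule set after the clusters had been seen. Gates are UMIs of the gate genes in a cell. ILC3-like cells with both Ncr1 and Ccr6 (0 and 3) and T cell-like cells with both Ifng and Il21 (13 and 76) were left out.

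Counts were added up over the cells of each gate in each replicate, 6 sums for ILC3-like and 6 for T cell-like cells, and tested with edgeR 4.0.16 (R 4.3.3; TMM, filterByExpr, quasi-likelihood test, two-sided, Benjamini-Hochberg over all genes tested, threshold 0.05). The replicate was a block, because gates of 1 replicate come from the same capture, which pairs them by construction. A class needed 10 cells in each replicate, and 2 residual degrees of freedom remained. To these edgeR added prior degrees of freedom from the spread over all genes, 20.6 in the ILC3-like and 601.5 in the T cell-like fit. The p-values and 95% intervals of the differences, above all in T cells, thus rest mostly on that shared spread. The fit was tested on simulated counts with known changes. Poisson and binomial intervals (95%) cover counting error only, and a count of 0 allows up to 3 counts. Thinning drew 1500 UMIs per cell and left out 6 and 168 ILC3-like and 6 and 344 T cell-like cells as too shallow. Motifs were searched in the RefSeq windows (GRCm38.p6).

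All 9 genes are named, every pathway gene that passed a test is named unless its result is not reported here, and for each of the 9 the 3 genes of most similar pattern. The genes, lists, gates and tests were chosen with earlier results of these data known. Alternatives were the normalisation, the low-count filter, the block, the classes in the fit, DESeq2 1.42.0, thinning, other gates, other clustering and leaving out each replicate. Leaving out cluster 2 was added after seeing the data.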

Additional observations from a re-analysis of the deposited data

How the results depend on the processing

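The number of genes called depended strongly on the fit, while most directions held. Of the log2 differences recomputed, 443 were counted as unchanged, 87 were no longer past the threshold and 1 newly passed. Another 28 changed sign in alternatives with both replicates, and 15 without a test moved. Unchanged meant the same direction and side of the threshold, except where 1 replicate was left out. There, 49 values without replicate 1 and 38 without replicate 2 were counted as unchanged for lying within 1 SD of the main value. A sign change there was counted only for called genes. For Ncr1-gated against Ccr6-gated cells (618 genes) the count was 295 without the replicate block, 380 with only these 2 classes in the fit, 271 with DESeq2, 219 after thinning, 317 without cells with a CD3 or T cell receptor UMI, 18 with gates in all filtered cells and 222 without cluster 2. For Ncr1-gated cells against the remainder (154) these counts were 12 without the replicate block, 234, 41, 77, 63, 404 and 2. For Ccr6-gated cells against the remainder (271) they were 39 without the replicate block, 75 with DESeq2, 64 after thinning, 89 without CD3 or receptor UMIs and 45 without cluster 2. For Ifng-gated cells (42) they were 0 without the replicate block (102 at an unadjusted p under 0.05 by edgeR's quasi-likelihood test), 1 with DESeq2, 80 after thinning and 9 with a Cd4 UMI required, and for Cd8-gated cells (124) 8 without the replicate block, 66 with 2 classes and 23 with DESeq2. Without a low-count filter the median log2 difference of all genes shifted to -0.12 for Ncr1-gated and -0.17 for Ccr6-gated cells against the remainder, and to -0.17 for Cd8-gated cells.

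Leaving out 1 replicate also turned the sign of some differences that were not called. In Ccr6-gated cells against the remainder, the single-replicate values ran from -1.61 to 1.27 for Il21r and from -0.16 to 0.11 for Il2rb. Il2ra ran from -0.37 to 0.62 between Ncr1-gated and Ccr6-gated cells, and Kit from -0.83 to 0.84 in Ifng-gated cells. The sign changes with both replicates in the fit were these. Between Ncr1-gated and Ccr6-gated cells, Il2ra was at 0.040 with DESeq2 and 0.17 with gates in all filtered cells, and Il2rg at -0.073 after thinning and -0.030 without cluster 2. Against the remainder, Ncr1-gated cells had Il7r at 0.033 after thinning, 0.074 without CD3 or receptor UMIs and 0.44 in all filtered cells, Il2ra at -0.058 without cluster 2, Il2rg at -0.058 after thinning and -0.092 without cluster 2, and, in all filtered cells, Il4ra at 0.54, Il21r at -1.72, Kit at 1.26 and Bcl2 at 0.67. Ccr6-gated cells had Il2rb at 0.14 without CD3 or receptor UMIs, 0.58 in all filtered cells and 0.049 without cluster 2, Il2rg at 0.015 after thinning and 0.52 in all filtered cells, Il4ra at 0.054 in all filtered cells, and Kit at 0.21, 0.032 and 1.32 after thinning, without CD3 or receptor UMIs and in all filtered cells. Il7r in Ifng-gated cells was at 0.10 after thinning. Il2rb in Cd8-gated cells was at 0.018 without the replicate block, 0.016 with 2 classes and 0.015 with DESeq2, and at 0.15 with a Cd4 UMI required. The gates in all filtered cells take in cells of other classes by construction, and for the other changes the cause was not tested. Leaving out 1 replicate gives values with no test: Il2rb between Ncr1-gated and Ccr6-gated cells was at 0.51 without replicate 2 and 0.68 without replicate 1. The contrasts of stromal cells and of Il21-gated cells, and thinned Cd8-gated cells, were not run, since a class had under 10 cells. Depth limits Il7 and Il15, and the low levels of Kit in T cell-like cells.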
